A study of Mus musculus with 8 samples.

Results

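The collagen genes are the rows of the gene count table whose names consist of Col, a type number, the letter a and a chain number, and 44 of the 31978 different gene names in the table (32390 rows) met this rule. They were sorted into 11 fibrillar, 6 basement membrane, 9 FACIT (fibril-associated collagens with interrupted triple helices), 9 network-forming and 9 other collagen genes, the last group holding the membrane-spanning, anchoring fibril and endostatin-bearing chains. Counts came from bulk RNA-seq of gastrocnemius, the large calf muscle, from 4 control *Nox4* fl/fl mice and 4 muscle-specific *Nox4* knockout mice (*Mck*-Cre;*Nox4* fl/fl, labelled KO and called NOX4-deficient here). All were male, on a C57BL/6 background, fed standard chow and 21 months old per the labels, and all carried floxed alleles of *Nox4*, which encodes a NADPH oxidase that makes hydrogen peroxide. Cre was driven by the muscle creatine kinase (*Mck*) promoter, which acts mainly in skeletal muscle and to a smaller degree in heart, so the fibroblasts, endothelial cells and other non-muscle cells of the tissue were not its intended target. The 8 libraries held 16350548 to 19804661 counts, the labels place them in 1 batch, and all 12 skeletal muscle fiber markers examined were detected, with summed levels from 166495 to 212280 CPM per mouse. CPM are counts scaled to a common library size, with TMM factors, errors are SDs over 4 mice, and fold changes compare NOX4-deficient with control mice.

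Collagens are secreted proteins in which 3 chains wind into a triple helix. Fibrillar types such as types I, III and V build the tension-bearing fibers around muscle fascicles, type IV forms the sheet of the basement membrane around each muscle fiber and capillary, and type VI links the basement membrane to the surrounding matrix. In skeletal muscle most collagen transcripts are made by fibroblasts, with type IV also made by endothelial cells and muscle cells.

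*Nox4* itself was measured at 5.09, 2.47, 1.87 and 3.64 CPM in control mice and at 1.74, 2.17, 2.21 and 2.17 CPM in NOX4-deficient mice. The groups overlapped, since control 3 lay below 3 of the 4 NOX4-deficient mice. The log2 fold change was −0.65 (SE 0.29, adjusted p = 0.207 by edgeR's quasi-likelihood test), which is not a call. The count covers the whole gene in all cells of the tissue, and the part removed by Cre was not counted separately.

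For 32 of the 44 collagen genes the counts were high enough to be tested. Calls required an absolute log2 fold change over 0.5 and an adjusted p under 0.05 over all 12725 rows tested. *Col4a1* and *Col5a3* fell and *Col24a1* rose in NOX4-deficient muscle, which is 9.38% of the collagen genes tested, beside 6.16% of all rows tested (3.48% called lower and 2.68% called higher). The remaining 29 collagen genes tested were not called, and 8 of the 32 had an unadjusted p under 0.05, against 23.2% of all rows. The fitted value was above 0 for 25 of the 32 genes (78.1%) and below 0 for 7, whereas 52.3% of all rows tested lay above 0, and the median log2 fold change was 0.31 over the collagen genes and 0.01 over all rows. Without control 4, the library with the lowest collagen level, 22 of 32 values were above 0, and without NOX4-deficient mouse 2, the library with the highest, 21 were. In bulk muscle, fewer cells of a type cannot be told apart from less RNA per cell.

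**Figure D1:**
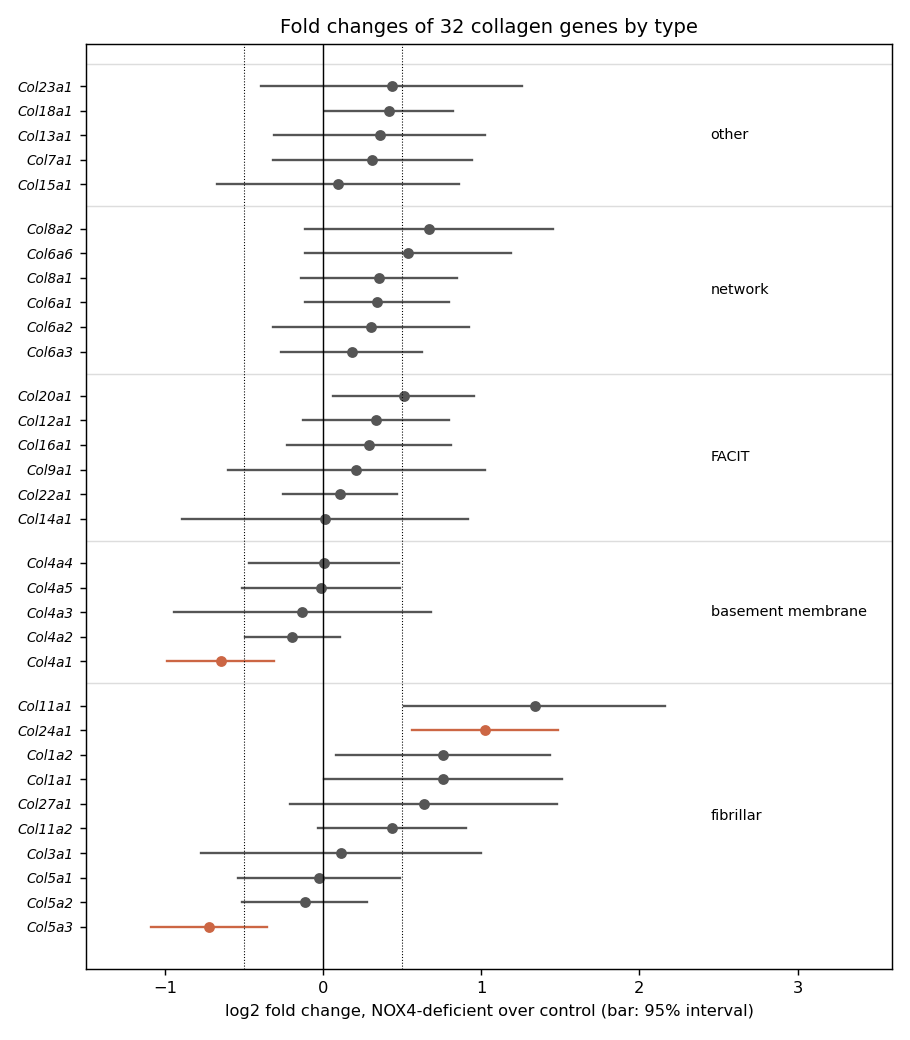
Log2 fold change (NOX4-deficient over control, x axis) of the 32 collagen genes tested, grouped by type. Points are edgeR estimates from 4 mice per group, bars are 95% intervals, dotted lines mark 0.5 in either direction, and orange marks the 3 called genes, *Col4a1* and *Col5a3* on the left and *Col24a1* on the right.

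Per kilobase of transcript, *Col4a1* was the most abundant collagen transcript over all mice at 14.9 CPM per kb, or 16.3% of the summed collagen level. *Col1a2* followed at 11.4 CPM per kb and *Col4a2* at 11.0 CPM per kb. Then came *Col3a1* (7.66), *Col6a1* (7.12), *Col1a1* (6.60) and *Col6a2* (6.27 CPM per kb), and these 7 genes together made up 70.9% of the collagen level. The order differed by genotype. In control mice *Col4a1* stood at 18.2 ± 3.21 CPM per kb, *Col4a2* at 11.8 ± 1.54 and *Col1a2* at 8.46 ± 3.09 CPM per kb, whereas in NOX4-deficient mice *Col1a2* stood at 14.3 ± 3.86, *Col4a1* at 11.6 ± 2.23 and *Col4a2* at 10.3 ± 1.87 CPM per kb. The level of *Col1a2* exceeded that of *Col4a1* in 0 of 4 control and in 3 of 4 NOX4-deficient mice. The means of *Col4a1* and *Col4a2* in NOX4-deficient mice differed by less than their SDs, as did neighboring means among *Col3a1*, *Col6a1*, *Col1a1* and *Col6a2* in either genotype.

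*Col4a1* encodes the chain that, with the product of *Col4a2*, makes the ubiquitous form of type IV collagen, in which 2 α1 chains pair with 1 α2 chain. *Col4a1* was measured at 120, 147, 118 and 95.7 CPM in control mice and at 72.3, 93.2, 58.8 and 83.2 CPM in NOX4-deficient mice. Every NOX4-deficient mouse lay below every control mouse, as was so for 8.97% of all rows tested. The mean fell from 120 ± 21.2 to 76.9 ± 14.8 CPM, a log2 fold change of −0.65 (95% interval −0.99 to −0.31, SE 0.16, edgeR adjusted p = 0.0264). The call was lost without control 1 (edgeR adjusted p = 0.0533), control 2 (0.0775), control 3 (0.0609), NOX4-deficient mouse 1 (0.0688) or NOX4-deficient mouse 3 (0.0688), with log2 fold changes from −0.75 to −0.53 over all omissions of 1 library.

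*Col4a2* lies head to head with *Col4a1* and is read from the opposite strand. It was measured at 78.3, 88.9, 71.0 and 66.0 CPM in control mice and at 58.0, 79.3, 54.6 and 74.1 CPM in NOX4-deficient mice. These groups overlapped, and the log2 fold change was −0.19 (95% interval −0.49 to 0.11, edgeR adjusted p = 0.445). The sum of both genes was 198, 236, 189 and 162 CPM in control mice and 130, 172, 113 and 157 CPM in NOX4-deficient mice, so that NOX4-deficient mouse 2 reached the control range. Because both transcripts start within the same short stretch, it is printed here on the plus strand, the strand of *Col4a2*, at chr8:11312805-11312826 of GRCm38.p6 (RefSeq). Capitals mark the letters GGGCGG, the GC box bound by SP1-family factors, and the libraries were unstranded, so reads of this overlap cannot be given to 1 of the genes.

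Col4a1 and Col4a2 shared start: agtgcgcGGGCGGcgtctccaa

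The other type IV chains were scarce. *Col4a3*, *Col4a4* and *Col4a5*, which build the specialized networks of kidney, lung and some other basement membranes, had means from 1.28 to 2.57 CPM in either group and log2 fold changes of −0.13, 0.01 and −0.01, none called. *Col4a6* was not tested, with 59 counts in all 8 libraries. The basement membrane group thus held 1 called gene of 5 tested, and its median log2 fold change was −0.13.

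The fibrillar genes differed most among themselves, with log2 fold changes from −0.72 to 1.34 and a median of 0.53 over the 10 tested. *Col5a3* encodes the α3 chain of type V collagen, a minor fibrillar collagen that helps set fibril width. *Col5a3* was measured at 27.6, 28.0, 22.3 and 20.8 CPM in control mice and at 15.2, 19.7, 11.4 and 13.5 CPM in NOX4-deficient mice. The groups did not overlap, although control 4 and NOX4-deficient mouse 2 lay close together. Its mean fell from 24.7 ± 3.67 to 15.0 ± 3.51 CPM, a log2 fold change of −0.72 (95% interval −1.09 to −0.36, SE 0.17, edgeR adjusted p = 0.0229). This call was lost without control 1 (edgeR adjusted p = 0.0571), control 2 (0.0659), NOX4-deficient mouse 3 (0.0612) or NOX4-deficient mouse 4 (0.0562), with log2 fold changes from −0.88 to −0.60 over all omissions. The other type V chains, which make the common α1 and α2 form, had log2 fold changes of −0.02 (*Col5a1*, edgeR adjusted p = 0.970) and −0.12 (*Col5a2*, edgeR adjusted p = 0.755).

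*Col24a1* encodes a fibrillar collagen best known from developing bone and cornea. It was measured at 1.92, 2.42, 2.68 and 2.08 CPM in control mice and at 3.37, 4.80, 5.78 and 4.57 CPM in NOX4-deficient mice. All NOX4-deficient mice lay above all control mice, as was so for 7.2% of all rows tested. The mean rose from 2.27 ± 0.340 to 4.63 ± 0.992 CPM, which is 2.04-fold and a log2 fold change of 1.03 (95% interval 0.57 to 1.49, SE 0.21, edgeR adjusted p = 0.0139). The values rest on 508 counts over the 8 libraries, and the call held in each of 8 fits that left out 1 library, with log2 fold changes from 0.91 to 1.16.

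The promoters of the called fibrillar genes are shown because these genes changed in opposite directions. Each line gives the 250 bases before the RefSeq transcript start on GRCm38.p6, read on the strand of the gene, which is chr9:20815068-20815317, minus strand, for *Col5a3* and chr3:145292222-145292471, plus strand, for *Col24a1*. Capitals mark matches to CCAAT (the box bound by NF-Y), to GGGCGG or its complement CCGCCC, and to TGACNNNGC, the core of the antioxidant response element bound by NFE2L2.

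Col5a3: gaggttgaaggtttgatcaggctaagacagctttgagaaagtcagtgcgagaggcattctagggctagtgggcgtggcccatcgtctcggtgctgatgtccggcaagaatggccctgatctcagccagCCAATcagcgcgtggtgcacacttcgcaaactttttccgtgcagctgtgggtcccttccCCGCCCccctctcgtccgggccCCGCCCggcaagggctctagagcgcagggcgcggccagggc
Col24a1: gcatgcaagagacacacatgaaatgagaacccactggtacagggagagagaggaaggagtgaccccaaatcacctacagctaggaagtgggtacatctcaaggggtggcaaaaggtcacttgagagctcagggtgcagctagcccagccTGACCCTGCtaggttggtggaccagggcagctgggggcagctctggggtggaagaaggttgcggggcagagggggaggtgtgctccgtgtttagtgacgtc

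The window of *Col5a3* held 1 CCAAT and 2 GC boxes, and that of *Col24a1* held 1 TGACNNNGC and neither of the others. Searched on both strands in windows of 300 bases (250 before to 50 after the start), TGACNNNGC was present in 7 of 38 windows of 35 collagen genes (18.4%) and in 12.4% of all 32851 windows. GGGCGG was present in 60.5% of collagen windows and 35.7% of all, CCAAT in 34.2% and 37.4%, TATAAA in 13.2% and 13.6%, and the AP-1 letters TGANTCA in 2.63%, the single window being that of *Col6a1*, and 7.81%. The median GC content was 59.8% in collagen windows and 52.7% in all windows. Such a match describes letters and not a bound site.

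Type I collagen, the main fibril of tendon and muscle connective tissue, is encoded by *Col1a1* (α1) and *Col1a2* (α2). *Col1a2* was measured at 52.0, 59.2, 48.4 and 21.4 CPM in control mice and at 75.7, 86.4, 96.0 and 48.2 CPM in NOX4-deficient mice. *Col1a1* was measured at 32.4, 41.6, 30.1 and 12.3 CPM in control mice and at 44.9, 54.1, 65.3 and 32.5 CPM in NOX4-deficient mice. In both genes 3 NOX4-deficient mice lay above all control mice, NOX4-deficient mouse 4 lay in the control range, and control 4 was the lowest. The log2 fold change was 0.76 for both (95% interval 0.01 to 1.51 and edgeR adjusted p = 0.213 for *Col1a1*, 0.08 to 1.44 and edgeR adjusted p = 0.170 for *Col1a2*), so that neither was called by edgeR. DESeq2 called *Col1a2* (adjusted p = 0.0498) but not *Col1a1* (adjusted p = 0.238), and pydeseq2 called neither. Without control 4 the estimates were 0.50 and 0.53 (edgeR adjusted p = 0.222 and 0.171).

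Type III collagen, a single-gene fibrillar type of compliant tissue, did not share these values. *Col3a1* was measured at 49.1, 53.5, 45.9 and 15.2 CPM in control mice and at 56.4, 59.1, 32.7 and 28.8 CPM in NOX4-deficient mice, with a log2 fold change of 0.11 (95% interval −0.77 to 1.00, edgeR adjusted p = 0.900). The interval spans more than 0.5 in both directions, and without control 4 the estimate was −0.16.

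*Col11a1*, which encodes a chain of the cartilage fibril type XI and is named here after its values were seen, had the highest log2 fold change of the collagen genes tested. It was measured at 1.26, 0.875, 1.02 and 0.520 CPM in control mice and at 1.08, 3.14, 3.15 and 1.82 CPM in NOX4-deficient mice. NOX4-deficient mouse 1 lay in the control range, and the log2 fold change of 1.34 (SE 0.38, 95% interval 0.51 to 2.16) missed the threshold with edgeR adjusted p = 0.0505. It passed with DESeq2 (adjusted p = 0.0163) and pydeseq2 (adjusted p = 0.0178). *Col11a2*, its partner chain, had a log2 fold change of 0.43 (edgeR adjusted p = 0.251) and *Col27a1*, a fibrillar type of cartilage, 0.64 (edgeR adjusted p = 0.360). *Col2a1*, the main cartilage fibril gene, held 35 counts in all and was not tested.

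**Figure D2:**
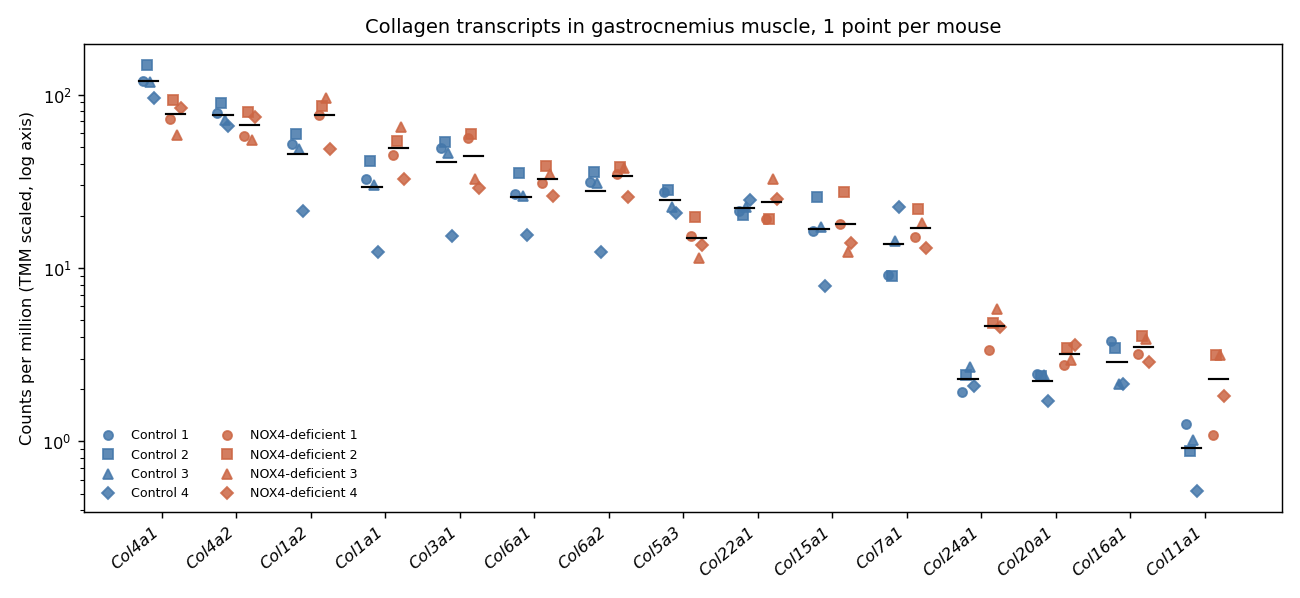
CPM (TMM scaled, log axis) of 15 collagen genes in each of the 8 mice, with bars at the group means. Blue marks control and orange NOX4-deficient mice, and shapes mark the mouse number within its group. The groups are separate for *Col4a1*, *Col5a3*, *Col24a1* and *Col20a1*, and control 4 (blue diamond) lies far below the other controls for *Col1a1*, *Col1a2*, *Col3a1*, *Col6a1* and *Col6a2*.

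FACIT collagens sit on the surface of fibrils and tie them to other matrix. All 6 tested lay above 0, with a median log2 fold change of 0.25, and 0 were called by edgeR, DESeq2 or pydeseq2, with 1 at an unadjusted edgeR p under 0.05. *Col22a1*, which is made at the junction of muscle and tendon, was the most abundant per kilobase. *Col22a1* was measured at 21.3, 20.1, 22.6 and 24.8 CPM in control mice and at 19.1, 19.1, 32.5 and 24.9 CPM in NOX4-deficient mice. Control values were tight, NOX4-deficient mouse 3 stood apart from the other mice, and the log2 fold change was 0.11 (95% interval −0.25 to 0.47, edgeR adjusted p = 0.750). *Col20a1*, a FACIT gene whose groups did not overlap, was measured at 2.46, 2.37, 2.41 and 1.72 CPM in control mice and 2.77, 3.44, 2.94 and 3.58 CPM in NOX4-deficient mice. Its log2 fold change of 0.51 (95% interval 0.06 to 0.95) had edgeR adjusted p = 0.159. *Col16a1* was measured at 3.78, 3.45, 2.14 and 2.13 CPM in control and 3.19, 4.05, 3.89 and 2.87 CPM in NOX4-deficient mice, and the groups overlapped (log2 fold change 0.29, edgeR adjusted p = 0.510). *Col12a1*, *Col14a1* and *Col9a1* had log2 fold changes of 0.33, 0.01 and 0.21. *Col19a1* (89 counts in all), *Col9a2* (58) and *Col9a3* (20) were not tested. *Col19a1* ranged widely between mice, from 2 to 21 counts in control and from 0 to 24 counts in NOX4-deficient libraries.

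The network group consisted of the beaded filament genes of type VI and the genes of types VIII and X. The 6 genes tested lay above 0, with log2 fold changes from 0.18 to 0.67 and a median of 0.35, and 0 were called by edgeR, DESeq2 or pydeseq2, with 0 at an unadjusted edgeR p under 0.05. *Col6a1* was measured at 26.6, 35.0, 25.9 and 15.5 CPM in control mice and at 30.9, 38.5, 34.9 and 26.1 CPM in NOX4-deficient mice. *Col6a2* was measured at 31.5, 35.6, 31.0 and 12.3 CPM in control mice and at 34.7, 38.0, 37.8 and 25.6 CPM in NOX4-deficient mice. The products of both join that of *Col6a3* in the type VI filament, whose loss causes muscle disease in humans, and in both the groups overlapped with control 4 lowest. The log2 fold changes were 0.34 (*Col6a1*, edgeR adjusted p = 0.362), 0.30 (*Col6a2*, edgeR adjusted p = 0.567) and 0.18 (*Col6a3*, edgeR adjusted p = 0.650). *Col6a6*, *Col8a1* and *Col8a2*, the last 2 encoding type VIII of vessel walls and the cornea, had values of 0.54, 0.35 and 0.67. *Col6a4* (3 counts in all), *Col6a5* (22) and *Col10a1* (4), the gene of hypertrophic cartilage, were not tested.

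Among the other collagens the 5 tested also lay above 0 (median log2 fold change 0.36), and 0 were called by edgeR, DESeq2 or pydeseq2, with 1 at an unadjusted edgeR p under 0.05. *Col15a1*, a basement membrane zone collagen of muscle and capillaries, was the most abundant per kilobase. It was measured at 16.3, 25.5, 17.2 and 7.90 CPM in control mice and at 18.0, 27.3, 12.4 and 13.9 CPM in NOX4-deficient mice, with a log2 fold change of 0.10 (edgeR adjusted p = 0.904). *Col7a1*, which forms anchoring fibrils, was measured at 9.05, 9.01, 14.2 and 22.5 CPM in control and at 15.0, 21.7, 18.1 and 13.1 CPM in NOX4-deficient mice (log2 fold change 0.31, edgeR adjusted p = 0.565). Control 4, the lowest control for most collagens, was the highest for *Col7a1*. *Col18a1*, the source of endostatin, had a log2 fold change of 0.42 (edgeR adjusted p = 0.202), *Col13a1*, a membrane-spanning collagen of the neuromuscular junction, 0.36, and *Col23a1* 0.43. *Col17a1* (31 counts in all), *Col25a1* (5), *Col26a1* (34) and *Col28a1* (48) were not tested.

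The summed level of all 44 genes differed less between genotypes than between mice. Collagen genes held 0.0583, 0.0667, 0.0515 and 0.0395% of counts in control mice and 0.0549, 0.0710, 0.0570 and 0.0474% in NOX4-deficient mice, that is 0.0540 ± 0.0115 and 0.0576 ± 0.00983%. Basement membrane genes summed to 204, 243, 195 and 168 CPM in control mice and to 136, 181, 118 and 164 CPM in NOX4-deficient mice, and fibrillar genes summed to 204, 226, 185 and 100 CPM in control mice and to 232, 274, 256 and 159 CPM in NOX4-deficient mice. In CPM, not scaled for length, fibrillar sums exceeded basement membrane sums in 0 of 4 control and 3 of 4 NOX4-deficient mice. Control 1 was nearly level. Per kilobase, fibrillar sums were 34.5, 38.4, 31.4 and 16.6 in control mice, beside basement membrane sums of 31.0, 36.9, 29.6 and 25.5. In NOX4-deficient mice they were 39.9, 46.7, 44.1 and 27.0 beside 20.6, 27.4, 17.9 and 24.8. The fibrillar sum per kilobase was thus the lower only in control 4. In either unit, fibrillar and basement membrane sums overlapped between genotypes. Network genes summed to 45.8 to 107 CPM in control and 79.6 to 119 CPM in NOX4-deficient mice, and the FACIT sums (37.7 to 41.4 and 36.8 to 57.9 CPM) and the sums of the other types (34.9 to 44.3 and 38.5 to 63.6 CPM) overlapped as well.

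**Figure D3:**
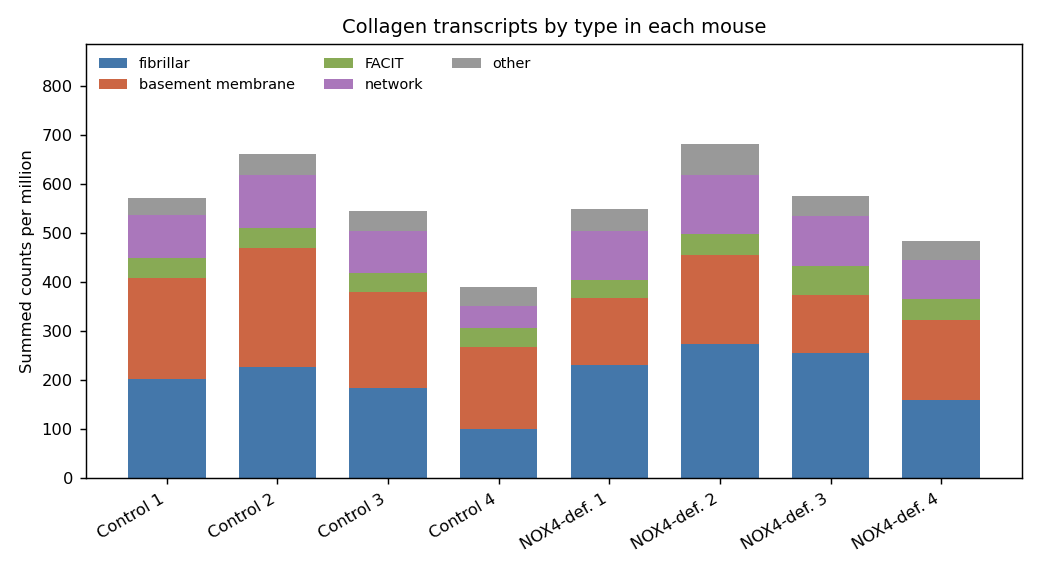
Summed CPM of the collagen genes in each mouse, stacked by type from 0. Control 4 has the lowest total (390 CPM) and NOX4-deficient mouse 2 the highest (681 CPM), and the basement membrane layer is thinnest in NOX4-deficient mouse 3 (118 CPM).

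Collagen transcripts varied more between mice of 1 genotype than most transcripts did, in a comparison not matched for level. Low counts widen the SD of log2 CPM, and *Col11a1*, for example, held 10 to 62 counts per library. The median SD of log2 CPM was 0.476 in control mice over the 32 collagen genes and 0.200 over all rows tested, and it was 0.340 and 0.244 in NOX4-deficient mice. Without control 4 the control values were 0.246 and 0.168. Control 4 was the lowest control in 21 of 32 collagen genes (65.6%, against 28.8% of all rows) and control 2 the highest in 17 (53.1% against 23.5%). NOX4-deficient mouse 2 was the highest of its group in 19 (59.4% against 28.6%) and NOX4-deficient mouse 4 the lowest in 14 (43.8% against 21.8%). Collagen genes of 1 mouse share a library and a tissue piece, so these counts describe mice and are not independent observations.

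Ratios of chains within a mouse, chosen after the values were seen, do not depend on library scaling. The ratio of *Col4a1* to *Col4a2* counts was 1.54, 1.66, 1.66 and 1.45 in control mice and 1.25, 1.17, 1.08 and 1.12 in NOX4-deficient mice, with no overlap (1.58 ± 0.102 and 1.16 ± 0.0731). The ratio of *Col5a3* to *Col5a1* was 1.68, 1.48, 1.53 and 2.44 in control mice and 1.08, 1.01, 0.908 and 1.22 in NOX4-deficient mice, again with no overlap. Each had p = 0.0286 in an exact two-sided permutation test, the smallest that 4 against 4 mice can give, and an adjusted p of 0.129 over the 9 pairs compared. With 4 mice per group, 2 separated pairs of 9 cannot reach a lower adjusted p, so the correction decides nothing here. Both ratios contain a gene already called. By contrast, the ratio of *Col1a1* to *Col1a2* was 0.631 ± 0.0533 in control and 0.644 ± 0.0414 in NOX4-deficient mice (exact permutation p = 0.714), although the level of each chain varied widely between mice. The ratio of *Col3a1* to *Col1a2* was 0.877 ± 0.112 in control and 0.592 ± 0.178 in NOX4-deficient mice (exact permutation p = 0.0571, adjusted p = 0.129).

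**Figure D4:**
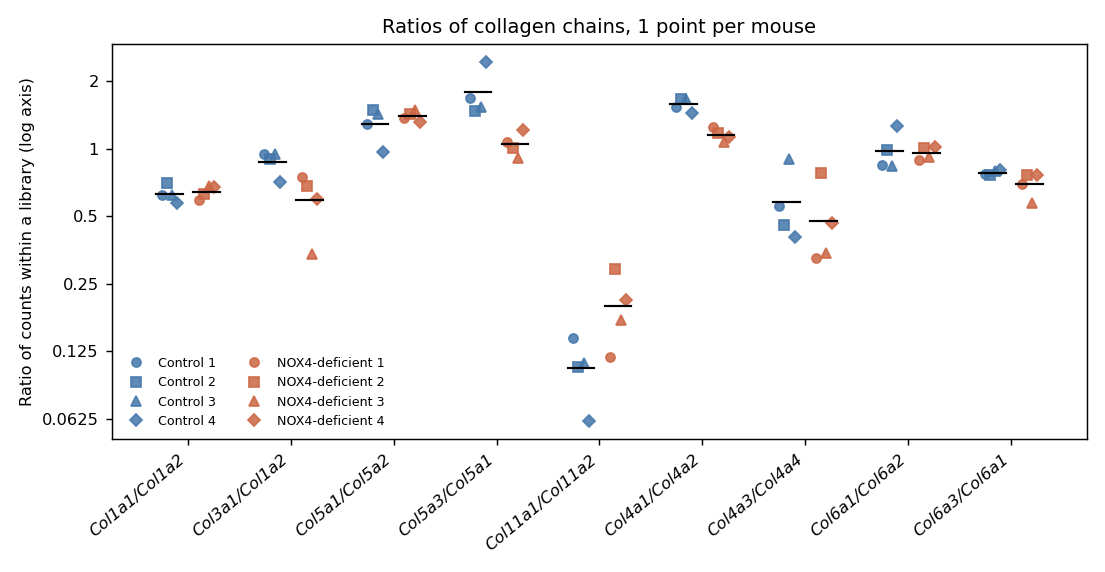
Ratios of the counts of 9 pairs of collagen chains in each mouse (log axis), with bars at the group means, blue for control and orange for NOX4-deficient mice. *Col4a1*/*Col4a2* and *Col5a3*/*Col5a1* are the 2 pairs whose groups do not overlap, and *Col1a1*/*Col1a2* is alike in all 8 mice.

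Other genes of the collagen pathway were taken from fixed lists of 107 genes in all, of which 94 were tested, and 5 of these were called lower and 0 higher by edgeR (5.32%, against 6.16% of all rows tested). At an unadjusted edgeR p under 0.05 there were 25 of the 94, against 23.2% of all rows tested. DESeq2 and pydeseq2 each fitted 105 of the genes and called 7 lower and 1 higher. Of all 20675 rows fitted, DESeq2 called 2.75% lower and 2.08% higher, and pydeseq2 called 2.78% and 2.09%. Genes of collagen biosynthesis act in the endoplasmic reticulum, where they hydroxylate, glycosylate and fold the chains. Of the 19 tested 0 were called by edgeR, with 4 at an unadjusted p under 0.05, and DESeq2 and pydeseq2 called 1, *Plod2*, lower. The median log2 fold change was −0.13. Their summed level was 651 to 675 CPM in control mice and 581 to 616 CPM in NOX4-deficient mice, without overlap. *P4ha2*, a prolyl 4-hydroxylase subunit, was measured at 29.7, 29.8, 26.9 and 29.5 CPM in control mice and at 20.3, 19.2, 22.8 and 22.2 CPM in NOX4-deficient mice. The groups were well separated, and its log2 fold change of −0.46 (SE 0.10, edgeR adjusted p = 0.0199) fell short of the fold minimum of 0.5. *Colgalt1*, which adds galactose to hydroxylysine, and *Plod2*, a lysyl hydroxylase, were named after their values were seen because their groups did not overlap either. *Colgalt1* was at 48.3 ± 0.772 and 39.1 ± 0.936 CPM (log2 fold change −0.30, edgeR adjusted p = 0.0517), and *Plod2* at 3.59 ± 0.589 and 2.07 ± 0.493 CPM (log2 fold change −0.78, edgeR adjusted p = 0.0553). In this list 3 genes were lower and 1 was higher without overlap, against 8.97% and 7.2% of all rows tested. The higher gene was *Fkbp10*, also named afterward, at 2.08 ± 0.394 and 2.80 ± 0.396 CPM (log2 fold change 0.43, edgeR adjusted p = 0.265).

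Genes of procollagen processing and crosslinking trim the secreted chains and join them covalently. Of 11 tested 1 (9.09%) was called lower and 0 higher by edgeR, against 3.48% and 2.68% of all rows tested. *Lox*, the lysyl oxidase that starts collagen crosslinks, was measured at 23.6, 15.8, 10.2 and 17.2 CPM in control mice and at 4.99, 7.84, 9.51 and 5.75 CPM in NOX4-deficient mice. Every NOX4-deficient mouse lay below every control, and *Lox* fell by 1.24 on the log2 scale (SE 0.26, edgeR adjusted p = 0.0148). The median of this list was −0.24, and its summed level was 140 to 165 CPM in control and 118 to 134 CPM in NOX4-deficient mice. Among genes of collagen degradation and uptake 0 of 11 tested were called by edgeR, DESeq2 or pydeseq2, 2 had an unadjusted edgeR p under 0.05, and the median log2 fold change was 0.01. The smallest p there was that of the gelatinase gene *Mmp9*, at 1.71 ± 1.01 and 0.631 ± 0.361 CPM (log2 fold change −1.41, edgeR adjusted p = 0.141). Among collagen receptors 0 of 6 tested were called by edgeR, with 2 at an unadjusted p under 0.05, and DESeq2 and pydeseq2 called *Itga11* lower. *Itga11*, the integrin α11 chain of fibroblasts, had the smallest p, at 3.84 ± 1.28 and 1.91 ± 0.668 CPM (log2 fold change −0.99, edgeR adjusted p = 0.0624).

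Transforming growth factor β (TGF-β) is the best known inducer of collagen genes in fibroblasts. Of 20 genes of TGF-β ligands, receptors and targets, 2 (10%) were called lower and 0 higher by edgeR, against 3.48% and 2.68% of all rows tested. *Tgfbr1*, the type I receptor, was measured at 54.0, 63.5, 57.4 and 79.3 CPM in control mice and at 30.4, 48.5, 34.7 and 42.0 CPM in NOX4-deficient mice (log2 fold change −0.71, SE 0.16, edgeR adjusted p = 0.0198). *Tgfbr3*, the coreceptor betaglycan, was at 48.1 ± 7.02 and 30.8 ± 7.20 CPM (log2 fold change −0.64, edgeR adjusted p = 0.0332). The groups did not overlap for either receptor, whereas the median of the list was 0.07. The *Tgfbr1* call was lost without control 4 (edgeR adjusted p = 0.0552) or NOX4-deficient mouse 3 (0.0584), and the *Tgfbr3* call without control 1 (0.0746), control 3 (0.0663), control 4 (0.0926), NOX4-deficient mouse 1 (0.0857) or NOX4-deficient mouse 4 (0.0835).

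Small leucine-rich proteoglycans bind collagen fibrils and space them, and 0 of 10 were called by edgeR, with 1 at an unadjusted p under 0.05. This was *Podn* (podocan), which DESeq2 and pydeseq2 called higher, at 3.91 ± 0.900 and 6.59 ± 1.40 CPM (log2 fold change 0.76, edgeR adjusted p = 0.0522). Of 17 genes of laminins, nidogens and other matrix proteins, 2 (11.8%), *Vcan* and *Fbn1*, were called lower and 0 higher by edgeR. The shares of all rows tested were 3.48% and 2.68%. In this list 7 had an unadjusted p under 0.05, 8 lay above 0, and the median log2 fold change was −0.095. *Lamb2*, named after its values were seen, was higher without overlap, at 86.0 ± 2.64 and 108 ± 11.1 CPM (log2 fold change 0.32, edgeR adjusted p = 0.0640). *Vcan*, the proteoglycan versican, was measured at 8.51, 8.95, 5.46 and 4.00 CPM in control mice and at 2.17, 3.84, 2.73 and 2.29 CPM in NOX4-deficient mice (log2 fold change −1.28, SE 0.28, edgeR adjusted p = 0.0176), and without control 2 its edgeR adjusted p was 0.0533. *Fbn1*, the microfibril protein fibrillin-1, was at 33.3 ± 11.0 and 17.0 ± 5.16 CPM (log2 fold change −0.97, edgeR adjusted p = 0.0491). Its groups overlapped, and the call was lost without control 1, 2 or 3 (edgeR adjusted p = 0.107, 0.107 and 0.0683) or NOX4-deficient mouse 1, 3 or 4 (0.113, 0.130 and 0.107). It was also lost with no filter on low counts (edgeR adjusted p = 0.147), at least 10 counts in every sample (0.0513), library size as the only scaling (0.0690) or a term for odd and even numbers (0.0956).

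Markers of the other cell types in muscle were summed per mouse. Of 12 fibroblast markers 2 (16.7%) were called lower and 0 higher by edgeR, against 3.48% and 2.68% of all rows tested. The called markers were *Pi16* and *Mfap5*, named after their values were seen. Sums of the 12 ran from 944 to 1496 CPM in control and from 712 to 1170 CPM in NOX4-deficient mice. *Pi16* (edgeR adjusted p = 0.0305) and *Mfap5* (0.0452) both lost their call without any 1 of control 1, control 2 or the NOX4-deficient mice, and *Mfap5* also without control 3, with edgeR adjusted p from 0.0563 to 0.106. With library size as the only scaling *Mfap5* had edgeR adjusted p = 0.0612. Of 10 macrophage and leukocyte markers 1 (10%) was called lower by edgeR (*Cd163*, likewise named afterward), against 3.48% of all rows tested. DESeq2 and pydeseq2 called 2 lower (*Lyve1* in addition). All 10 macrophage and leukocyte markers had values below 0, whereas 52.3% of all rows tested lay above 0. Their median log2 fold change was −0.60, against 0.01 over all rows, and their sums were 28.1 to 76.1 and 16.1 to 39.9 CPM. *Cd163* (edgeR adjusted p = 0.0238) lost its call without control 2 (0.0579), NOX4-deficient mouse 1 (0.0634) or 4 (0.0573). The 10 tendon markers had sums of 143 to 243 and 188 to 383 CPM, the top value being that of NOX4-deficient mouse 3, which was also the mouse with the highest *Col1a1*, *Col1a2* and *Col22a1*. The 10 endothelial markers had sums of 311 to 386 and 346 to 369 CPM, with means of 352 and 358 CPM. Sums were 405 to 497 and 484 to 611 CPM for 8 smooth muscle and pericyte markers, 83.8 to 116 and 85.6 to 210 CPM for 10 Schwann cell markers, 17.6 to 86.0 and 26.0 to 77.3 CPM for 7 adipocyte markers, and 30.5 to 35.5 and 34.2 to 38.9 CPM for 6 satellite cell markers. In these 4 lists and in the tendon, endothelial and muscle fiber lists edgeR called 0, with 0 to 3 per list at an unadjusted p under 0.05, and DESeq2 and pydeseq2 each called 1 Schwann cell and 1 smooth muscle and pericyte marker higher. No marker in these lists was at 0 in all libraries. The part of any of these cell types in the collagen values was not tested.

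**Figure D5:**
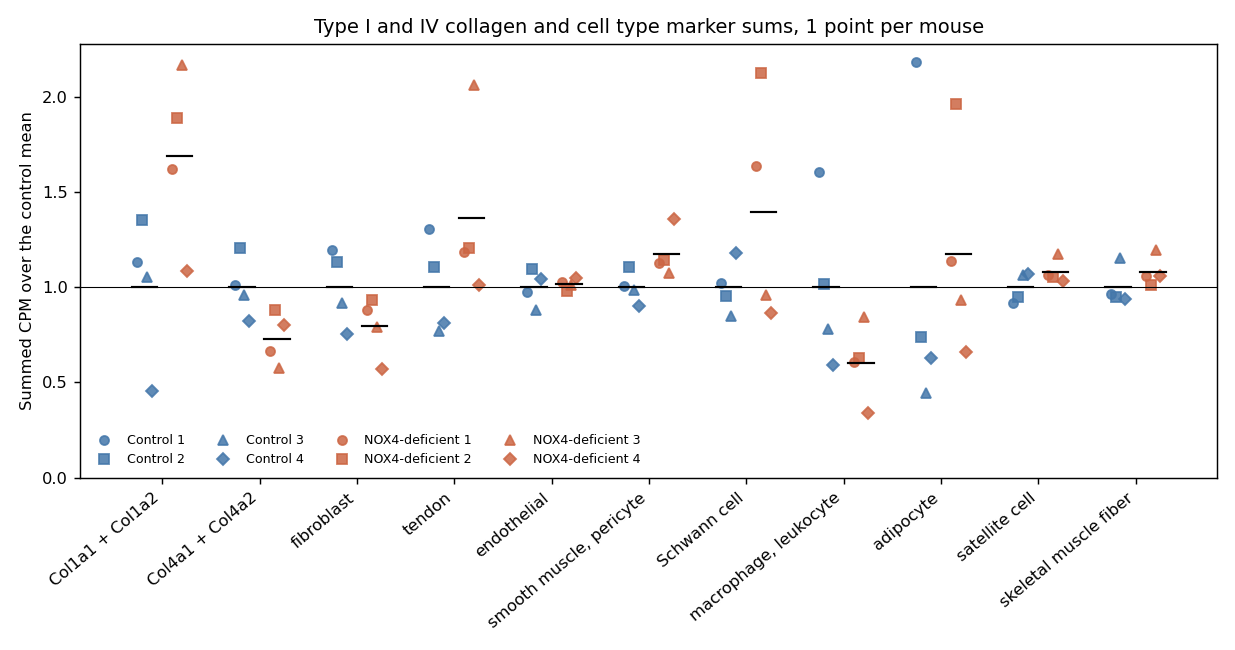
Summed CPM of the type I and type IV (α1 and α2) collagen genes and of 9 lists of cell type markers in each mouse, divided by the control mean, with bars at the group means. The type I sum is lowest in control 4 and highest in NOX4-deficient mouse 3, the tendon sum is also highest in that mouse, and the endothelial sums lie near 1 in all mice.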

How the data were processed

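Total RNA of 8 gastrocnemius muscles was selected for poly(A), made into unstranded libraries and sequenced as paired-end reads. The authors processed the reads with the nf-core RNA-seq pipeline and deposited a table of raw, whole-number counts with 1 column for each mouse. The submitters' processing notes name STAR and GRCm39. Annotation and counting settings are not given in the sources used here. For a repeated gene name (412 rows), the row with most counts was used. Columns were matched to mice by name, and 0 were left unmatched.

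Counts were fitted in R 4.3.3 with edgeR 4.0.16 (TMM, filterByExpr, robust glmQLFit, glmQLFTest, with a term for genotype alone), with Benjamini-Hochberg adjustment over 12725 rows. The common biological coefficient of variation was 0.174. Intervals are 95% intervals of the edgeR coefficient. DESeq2 1.42.0 and pydeseq2 0.5.4 were alternatives, and the fits were checked on simulated counts. Levels per kilobase used the longest GENCODE transcript of GRCm38, not the authors' annotation. Promoters came from RefSeq's table for GRCm38.p6, which holds windows for 35 of the 44 genes.

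The collagen genes and the gene lists were chosen with earlier results of these data known. Values in every mouse are given for called or non-overlapping collagen genes, the 2 chains with the highest level per kilobase in each type and *Col1a1*. From each pathway list the called genes are named, or else the gene with the smallest p. No pair of libraries of 1 genotype agreed within sampling noise (chi-square over its degrees of freedom, 13.5 to 56.4). The value was 23.2 for NOX4-deficient mice 1 and 3, 19.97 for 2 and 4, and 35.1 to 56.4 between these pairs. The second principal component also set mice 1 and 3 (18.5 and 17.01) apart from mice 2 and 4 (−26.27 and −24.98). *Col4a1* and *Col4a2* were lower in mice 1 and 3 than in mice 2 and 4, whereas *Col1a1* and *Col1a2* were not split this way. The cause of this split was not tested. The 12 genes not tested held 3 to 89 counts over all libraries and did not pass the count filter. The alternatives tried were other scalings, count filters, thresholds and tools, a replicate block, a term for odd and even numbers chosen after seeing the data, and leaving out each mouse.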

Additional observations from a re-analysis of the deposited data

Results flagged for a closer look

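Of 142 groups of 4 mice examined (the CPM of single genes and the sums over lists), 8 held a mouse whose gap to its nearest neighbor, as a share of the group's whole range, passed Dixon's 95% critical value. Chance gives about 1 in 20, which is 7.1 groups here.

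For *Col20a1*, control 4 was the lowest at 1.72 CPM against 2.37 CPM in the next control (0.879 of the range). For *Col23a1*, control 1 was the lowest at 0.539 CPM against 1.71 CPM (0.847). For *Nox4*, NOX4-deficient mouse 1 was the lowest at 1.74 CPM against 2.17 CPM (0.918). For *P4ha2*, control 3 was the lowest at 26.9 CPM against 29.5 CPM (0.892). The summed level of procollagen processing and crosslinking genes was lowest in NOX4-deficient mouse 4, at 118 CPM against 131 CPM (0.838). That of laminins, nidogens and other matrix genes was highest in NOX4-deficient mouse 2, at 877 CPM against 665 CPM (0.889). The adipocyte marker sum was highest in control 1, at 86.0 CPM against 29.0 CPM (0.832). The skeletal muscle fiber marker sum was highest in control 3, at 204912 CPM against 171052 CPM (0.881).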

How the results depend on the processing

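The call of *Col24a1* held in all 17 alternatives that refitted the counts (adjusted p from 8.4e-04 to 0.0429), but at an adjusted p under 0.01 the calls were 0 lower and 0 higher among collagen genes and 156 lower and 96 higher among all rows. Collagen genes called higher numbered 3 with DESeq2 (*Col11a1* and *Col1a2*, adjusted p = 0.0498, joining *Col24a1*) and 3 with the replicate block, 2 with no filter on low counts, with at least 10 counts in every sample, with pydeseq2 and with the term for odd and even numbers, and 1 to 2 when 1 mouse was left out. Those called lower numbered 0 to 2 when 1 mouse was left out. Over all rows these omissions gave 295 to 425 lower (main 443) and 204 to 317 higher (main 341), the lowest counts being without control 4, and without control 2 there were 227 higher. The median collagen log2 fold change stayed between 0.17 and 0.42 in the same fits.

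Replicate numbers did not pair the mice, since same-numbered deviations correlated at 0.223, 0.147, 0.041 and 0.041. With the number as a block, *Col1a1* (log2 fold change 0.83, edgeR adjusted p = 0.0147) and *Col1a2* (0.81, 0.00304) were called, and *Lox* (0.0711) and *Tgfbr3* (0.0550) were not.

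The sign held in every alternative for 24 of the 32 collagen genes. *Col4a4* moved to −0.0011 with no filter, and *Col4a5* to 0.0074 with at least 10 counts in every sample and to 0.0030 with library size only. Leaving out 1 mouse gave log2 fold changes from −0.26 to 0.27 for *Col14a1*, −0.19 to 0.38 for *Col15a1*, −0.066 to 0.21 for *Col22a1*, −0.16 to 0.29 for *Col3a1*, −0.63 to 0.074 for *Col4a3*, −0.086 to 0.096 for *Col4a4*, −0.15 to 0.11 for *Col4a5* and −0.21 to 0.13 for *Col5a1*. The cause of these changes was not tested. The 4 mice per group, the lower collagen levels of control 4 and the low counts of *Col11a1* and *Col24a1* limit these values.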
